A study of Saccharomyces cerevisiae with 26 samples.

Results

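The genes described here are the G1 cyclins CLN1, CLN2 and CLN3, the B-type cyclins CLB1 to CLB6, and PCL1, a G1 cyclin of the kinase Pho85, in budding yeast (Saccharomyces cerevisiae). They were chosen by name, and all 10 had at least 1 spot on the array, out of 5606 genes with a named spot. Every array compared total RNA of a continuous culture on galactose, taken at 1 time after a brief addition of glucose and labelled with Cy5, with RNA of the culture at t=0, labelled with Cy3. Glucose was given at 2 g/l (the larger pulse, 14 times, 3 to 240 min) or at 0.2 g/l (the smaller pulse, 12 times, 2 to 150 min), and each time was measured on 1 array. The labels do not give the strain, the number of cultures or the growth rate of the chemostat.

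The arrays were grouped by time for the tests. For 2 g/l, the early group held the arrays of 3, 5, 7 and 10 min, the middle group those of 15, 20, 30 and 45 min, the late group those of 90, 120 and 150 min, and the last group those of 180, 210 and 240 min. For 0.2 g/l, the early group held 2, 4, 6, 8 and 10 min, the middle group 15, 20, 30 and 45 min, and the late group 90, 120 and 150 min. The spread used in the main tests was 1 estimate per gene, pooled over the 7 groups of both pulses. It is therefore not the standard deviation printed for a single group. The arrays in a group are times of 1 time course and stand in for replicates. A p-value thus measures the pooled spread between neighbouring times and not between cultures. For the same reason an effect of the glucose dose cannot be told apart from one of the culture.

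Cyclins bind the cyclin-dependent kinase Cdc28 and direct it to its targets at successive stages of cell division. In G1, Cln3 triggers the transcription factors SBF and MBF, which switch on CLN1, CLN2, PCL1, CLB5 and CLB6. Clb5 and Clb6 then drive DNA replication, Clb3 and Clb4 act in S phase and early mitosis, and Clb1 and Clb2 drive mitosis, their genes being transcribed with the forkhead and Mcm1 factors. Glucose is known to act on the G1 cyclins and on cell size in yeast. In RNA of a whole culture, fewer cells in a phase and less of a transcript per cell cannot be told apart.

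All values below are log2 ratios of a time after the pulse to t=0, so that 0 is the level at t=0 and -1 is a halving. Spots of 1 gene were averaged. Arrays held values for 5104 to 5602 genes, and the standard deviation (SD) over genes on an array ranged from 0.415 to 1.03. Of the 2 g/l arrays, that of 10 min had the largest SD over genes, 0.984, and the fewest measured spots, 7979. The 0.2 g/l arrays of 45, 30 and 90 min were those least like the other arrays of their group across genes, with Pearson r of 0.124, 0.365 and 0.443. The sugar genes moved on these arrays: in the 2 g/l middle group all 7 of 7 checked genes passed the test, with GAL10, an enzyme of galactose use, at a mean of -3.54 and HXT2, a glucose transporter, at 4.03.

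Every call of a G1 cyclin was downward. After 2 g/l, CLN1 and PCL1 fell in the early and the middle group, and CLN3 fell in the early group. After 0.2 g/l, CLN1 fell in the early group, while CLN3 and PCL1 fell in the middle and the late group. CLB2, a mitotic cyclin, rose in the 2 g/l middle and late groups and in the 0.2 g/l early and middle groups. CLB3 and CLB4 fell in the 0.2 g/l middle group, where both values depended on 1 array. No group mean of CLN2, CLB5 or CLB6 passed the test. The threshold was an adjusted p under 0.05 in limma's moderated test with Benjamini-Hochberg adjustment over 5372 genes, and 9 of the 10 cyclins entered it. CLB1 had too few values in the 0.2 g/l middle group. With the last group of the same pulse in place of t=0, no cyclin passed the test in any of the 5 earlier groups. With only the groups of a comparison in a fit, the 2 g/l early calls were lost for CLN1, PCL1 and CLN3 (limma adjusted p = 0.061, 0.0835 and 0.0991). No cyclin was then called in the 0.2 g/l middle and late groups, while CLN2, CLB3 and CLB6 were called in the 2 g/l middle group (limma adjusted p = 0.041, 0.00523 and 0.0175). For this setting and for the last group as reference, the share of all genes called is not set beside the calls. These changes can therefore not be read as results about the cyclins.

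CLN1, a G1 cyclin that promotes budding and entry into S phase, had a value on all 26 arrays. After 2 g/l its log2 ratio was -0.37 at 3 min, -0.35 at 5 min, -0.80 at 7 min and -1.34 at 10 min. It was then -0.76 at 15 min, -0.83 at 20 min, -0.48 at 30 min and -0.59 at 45 min. From 90 min on it was -0.12 at 90 min, -0.45 at 120 min, 0.03 at 150 min, -0.40 at 180 min, -0.50 at 210 min and -0.20 at 240 min. The value at 10 min was the lowest of them, and 13 of the 14 arrays of this pulse lay below 0.

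After 0.2 g/l, CLN1 stood at -0.46 at 2 min, -0.63 at 4 min, -0.63 at 6 min, -0.59 at 8 min and -0.21 at 10 min. It was -0.13 at 15 min, 0.13 at 20 min, 0.04 at 30 min and -0.06 at 45 min, and then -0.05 at 90 min, -0.27 at 120 min and -0.41 at 150 min. In this pulse the low values came within the first 8 min, and the arrays from 15 to 45 min lay on both sides of 0.

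The mean of CLN1 was -0.71 ± 0.47 (SD, n = 4 arrays) in the 2 g/l early group, with a limma adjusted p of 0.000368, and -0.66 ± 0.16 (SD, n = 4) in the middle group, with a limma adjusted p of 0.000233. In the 0.2 g/l early group it was -0.51 ± 0.18 (SD, n = 5; limma adjusted p = 0.00227). The other groups did not pass the test: the 2 g/l late group at -0.18 ± 0.25 (SD, n = 3), the 2 g/l last group at -0.36 ± 0.15 (SD, n = 3), the 0.2 g/l middle group at -0.00 ± 0.12 (SD, n = 4) and the 0.2 g/l late group at -0.24 ± 0.18 (SD, n = 3). In order of level, the 2 g/l early and middle groups and the 0.2 g/l early group were lowest, and the difference between the 2 g/l early and middle groups was 0.05 (95% interval -0.32 to 0.42). The 2 g/l late group exceeded the middle group by 0.49, with no overlap of arrays, but with a limma adjusted p of 0.159. The calls against t=0 were lost when the last group of the same pulse took the place of t=0: CLN1 then differed by -0.35 in the 2 g/l early group (limma adjusted p = 0.234) and by -0.30 in the middle group (limma adjusted p = 0.280).

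CLN2, the close relative of CLN1 with the same role, gave no call on the mean of its spots. After 2 g/l it was 0.16 at 3 min, -0.05 at 5 min, -0.16 at 7 min and -0.15 at 10 min, then -0.16 at 15 min, -0.38 at 20 min, -0.34 at 30 min and -0.16 at 45 min. Its later values ran from -0.71 at 210 min to 0.08 at 240 min. After 0.2 g/l it ranged from -0.36 at 30 min to 0.35 at 10 min, with 7 of 12 arrays above 0. The 2 g/l arrays were thus mostly a little below t=0 and the 0.2 g/l arrays lay on both sides of it.

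The 2 g/l early mean of CLN2 was -0.05 ± 0.15 (SD, n = 4), with a 95% interval of -0.29 to 0.19, an interval that does not reach the -0.71 measured for CLN1 in the same arrays. The difference between the genes was not itself tested. The 2 g/l middle mean was -0.26 ± 0.12 (SD, n = 4; limma adjusted p = 0.0686) and the late mean -0.36 ± 0.08 (SD, n = 3; limma adjusted p = 0.0767). All 7 of these middle and late arrays were below 0. The 2 spots of CLN2 correlated at r = 0.564 over 26 arrays, with a median absolute difference of 0.174. Fitted one by one, the second spot passed in the 2 g/l middle group (-0.39, limma adjusted p = 0.0162) and late group (-0.60, limma adjusted p = 0.00792), where the first read -0.13 (limma adjusted p = 0.414) and -0.11 (limma adjusted p = 0.679). Without the 0.2 g/l array of 30 min the mean of the spots passed as well in both groups (limma adjusted p = 0.0443 and 0.0473), and likewise without the 2 g/l array of 240 min (limma adjusted p = 0.0434 and 0.0465). Across genes with exactly 2 spots the median r was 0.549 and the median difference 0.213. Over the 26 arrays, CLN1 and CLN2 correlated at r = 0.213, which is a description of points that share a t=0 reference. How far the probes of close relatives share signal was not tested.

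CLN3, the cyclin upstream of SBF and MBF, passed the test in different groups of the 2 pulses. After the larger pulse it was -0.09 at 3 min, -0.56 at 5 min, -0.47 at 7 min and -0.27 at 10 min, then -0.36 at 15 min, -0.04 at 20 min, 0.01 at 30 min and 0.16 at 45 min. Its later values lay between -0.64 (210 min) and 0.14 (240 min). After 0.2 g/l it was 0.11 at 2 min, 0.02 at 4 min, -0.08 at 6 min, -0.57 at 8 min and -0.09 at 10 min. It continued at -0.26 at 15 min, -0.37 at 20 min, -0.44 at 30 min, -0.57 at 45 min, -0.63 at 90 min, -0.53 at 120 min and -0.58 at 150 min. All 7 arrays of the smaller pulse from 15 min on were below 0, including the last one, at 150 min.

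The 2 g/l early mean of CLN3 was -0.35 ± 0.21 (SD, n = 4; limma adjusted p = 0.0257). The 0.2 g/l middle mean was -0.41 ± 0.13 (SD, n = 4; limma adjusted p = 0.0103) and the 0.2 g/l late mean -0.58 ± 0.05 (SD, n = 3; limma adjusted p = 0.0123). The corresponding 2 g/l means were -0.06 ± 0.22 (SD, n = 4) in the middle group and -0.24 ± 0.12 (SD, n = 3) in the late group, neither of which passed the test. The differences between the pulses were 0.36 in the middle group (limma adjusted p = 0.151) and 0.35 in the late group (limma adjusted p = 0.420), so the timing of CLN3 was not shown to differ between them. For the larger pulse the early call was lost without the array of 5 min (-0.28, limma adjusted p = 0.124), of 7 min (-0.31, limma adjusted p = 0.110) or of 10 min (-0.38, limma adjusted p = 0.0602). Quantile normalization also put it just past the threshold (-0.36, limma adjusted p = 0.0508), so that it was no longer called. The 0.2 g/l late call was lost without the array of 90 min (limma adjusted p = 0.0826) or of 150 min (limma adjusted p = 0.0865).

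PCL1 was the only cyclin here below 0 on every array that measured it, 25 of 25, a pattern shared by 165 of the 5485 genes with 20 or more values (3.01%). In the larger pulse it was -0.21 at 3 min, -0.35 at 5 min, -1.63 at 7 min, -1.94 at 10 min, -0.85 at 15 min, -0.52 at 20 min, -0.71 at 30 min and -0.67 at 45 min. From 90 to 240 min it lay between -0.85 and -0.38. After the smaller pulse it was -0.35 at 2 min, -0.51 at 4 min, -0.09 at 6 min, -0.37 at 8 min and -0.33 at 10 min, then -1.13 at 20 min, -0.78 at 30 min and -0.58 at 45 min, with no value at 15 min. The late arrays read -1.05 at 90 min, -0.61 at 120 min and -0.72 at 150 min. The lowest values after 2 g/l were those of 7 and 10 min, and CLN1 too was lowest at 10 min. The array of 10 min also had the largest SD over genes of this pulse (0.984), a spread in both directions. Whether low values there were particular to these cyclins was not tested.

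The means of PCL1 were -1.03 ± 0.88 (SD, n = 4; limma adjusted p = 0.000578) in the 2 g/l early group and -0.69 ± 0.14 (SD, n = 4; limma adjusted p = 0.00645) in the middle group. In the 0.2 g/l pulse the middle mean was -0.83 ± 0.28 (SD, n = 3; limma adjusted p = 0.00663) and the late mean -0.79 ± 0.23 (SD, n = 3; limma adjusted p = 0.0316). The 0.2 g/l early mean was -0.33 ± 0.15 (SD, n = 5; limma adjusted p = 0.157), with all 5 arrays below 0. The 2 g/l late and last means were -0.54 and -0.55 (limma adjusted p = 0.114 and 0.139). The late one passed under quantile normalization, array weights and only the groups compared (limma adjusted p = 0.00291, 0.00707 and 0.0302), the last one under quantile normalization (limma adjusted p = 0.00163). The late difference between the pulses was 0.25 (limma adjusted p = 0.801), so a late fall particular to the smaller pulse was not shown. The 0.2 g/l middle call was lost without the array of 20 min (-0.68, limma adjusted p = 0.0701). For the smaller pulse the late call was lost without any 1 of its 3 arrays, with limma adjusted p of 0.212, 0.0662 and 0.133 without the arrays of 90, 120 and 150 min.

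The 2 spots of PCL1 agreed poorly, with r = 0.165 over 24 arrays and a median absolute difference of 0.43. At 10 min after 2 g/l they read -3.58 and -0.29, so the depth of the trough at that time depended on the first spot. At 7 min they read -1.96 and -1.29. Fitted one by one after the data were seen, both spots still passed the test in the 2 g/l early group, at -1.51 (limma adjusted p = 0.00204) and -0.55 (limma adjusted p = 0.0097). The first spot passed in no other group. The second passed in 4 more, at -0.54 in the 2 g/l middle group (limma adjusted p = 0.00836), -0.61 in the 2 g/l late group (limma adjusted p = 0.0278), -0.63 in the 0.2 g/l middle group (limma adjusted p = 0.0111) and -0.84 in the 0.2 g/l late group (limma adjusted p = 0.00786).

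**Figure D1:**
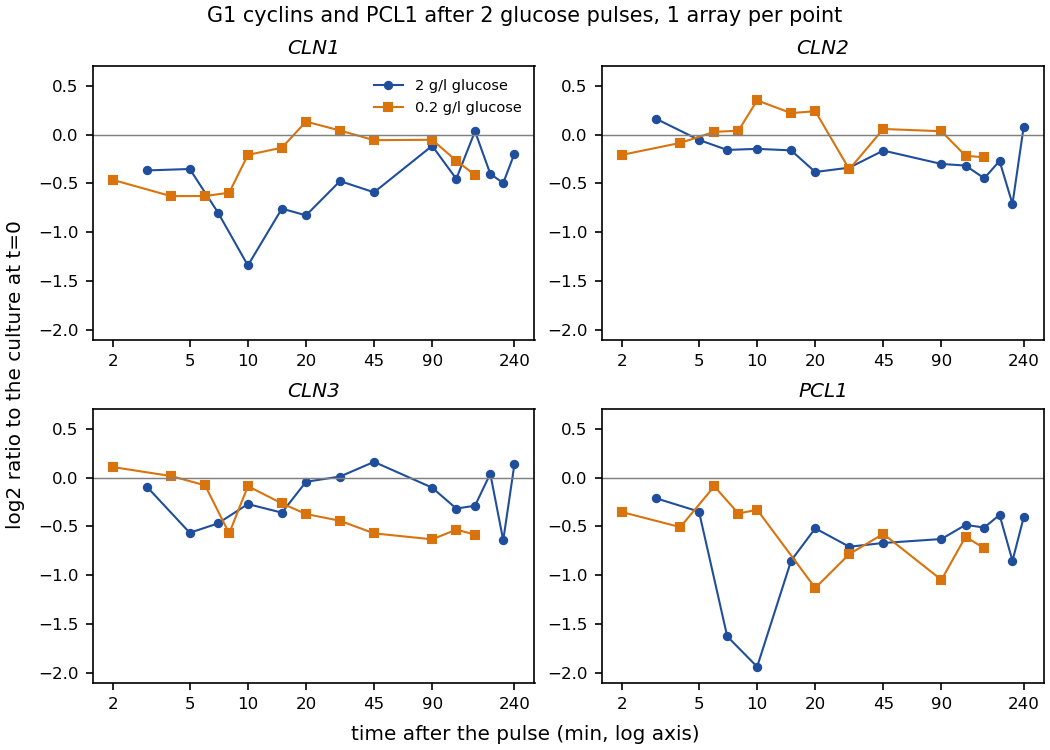
Log2 ratio to t=0 (vertical axis) against time after the pulse in min (horizontal log axis) for CLN1, CLN2, CLN3 and PCL1, with 1 array per point, circles for 2 g/l and squares for 0.2 g/l. CLN1 reached -1.34 and PCL1 -1.94 at 10 min after 2 g/l, whereas CLN2 stayed between -0.71 and 0.35 and CLN3 ended the smaller pulse at -0.58.

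**Figure D2:**
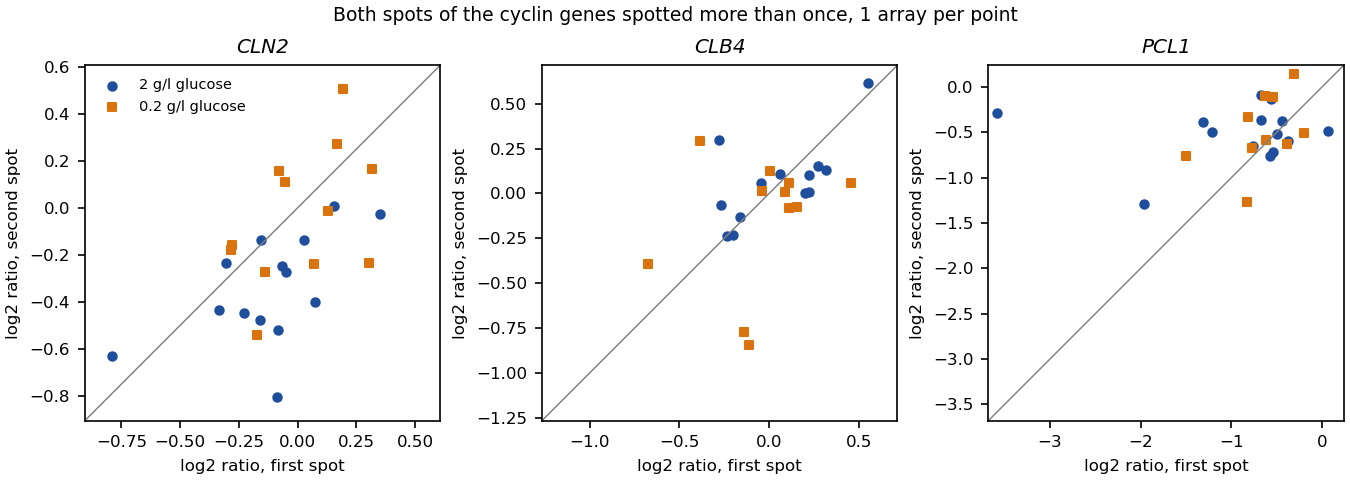
The first spot (horizontal axis) against the second spot (vertical axis) of CLN2, CLB4 and PCL1, both as log2 ratios to t=0, with 1 array per point and the line of equal values. For PCL1 the point of 10 min after 2 g/l lies at -3.58 and -0.29, far from the line.

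Among the B-type cyclins, the mitotic cyclin CLB2 moved upward. Following the larger pulse it was 0.04 at 3 min, 0.03 at 5 min, -0.16 at 7 min and 0.04 at 10 min, then 0.33 at 15 min, 0.54 at 20 min, 0.66 at 30 min and 0.38 at 45 min. It read 0.14 at 90 min, 0.29 at 120 min and 0.84 at 150 min, and 0.26, -0.18 and 0.07 at 180, 210 and 240 min. In the smaller pulse it was -0.03 at 2 min, 0.18 at 4 min, 0.32 at 6 min, 0.37 at 8 min, 0.67 at 10 min, 0.53 at 15 min and 0.69 at 20 min, with no value at 30 min. It was 0.02 at 45 min, 0.04 at 90 min, -0.01 at 120 min and 0.16 at 150 min. The high arrays were those of 6 to 20 min after the smaller pulse, and those of 15 to 45 min and of 150 min after the larger one, where all 4 middle arrays exceeded all 4 early ones.

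The CLB2 mean was 0.48 ± 0.15 (SD, n = 4; limma adjusted p = 0.00335) in the 2 g/l middle group, 0.30 ± 0.26 (SD, n = 5; limma adjusted p = 0.0437) in the 0.2 g/l early group and 0.41 ± 0.35 (SD, n = 3; limma adjusted p = 0.0265) in the 0.2 g/l middle group. For the larger pulse the late mean of 0.42 ± 0.37 (SD, n = 3; limma adjusted p = 0.0488) rested on the array of 150 min and was 0.22 without it (limma adjusted p = 0.444), and the call held under only 11 of 35 alternatives. It was lost without the array of 90 min (limma adjusted p = 0.0585) or of 120 min (limma adjusted p = 0.106), with array medians set to 0 (limma adjusted p = 0.0652) and without most single arrays of other groups. Its 2 g/l early mean was -0.01 ± 0.10 (SD, n = 4). The early difference between the pulses was -0.31 (limma adjusted p = 0.472), and the step from early to middle after 2 g/l was 0.49 (limma adjusted p = 0.146). Neither passed the test. For the smaller pulse the early call was lost when array medians were set to 0 (limma adjusted p = 0.0612) and without the array of 4 min (limma adjusted p = 0.0626), 6 min (limma adjusted p = 0.0996), 8 min (limma adjusted p = 0.124) or 10 min (0.21, limma adjusted p = 0.228). The middle call of that pulse was lost without the array of 15 min (limma adjusted p = 0.131) or of 20 min (0.27, limma adjusted p = 0.236).

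CLB1, the partner of CLB2 in driving mitosis, lay above 0 on 19 of the 21 arrays that measured it. After the larger pulse it was 0.72 at 3 min, 0.16 at 5 min, -0.13 at 7 min and 0.34 at 10 min, then 0.62 at 15 min, 0.93 at 20 min, 0.80 at 30 min, 0.67 at 45 min, 0.91 at 90 min, 0.52 at 120 min, 0.64 at 150 min, 0.43 at 180 min, 0.37 at 210 min and 1.44 at 240 min. Following the smaller pulse it had values on 7 arrays: 1.21 at 2 min, 0.30 at 6 min, 0.32 at 8 min, 0.25 at 10 min, 0.17 at 30 min, -0.08 at 120 min and 0.39 at 150 min. In a fit with no filter on missing values, added after the data were seen, CLB1 rose in the 2 g/l middle group (0.75 ± 0.14 SD, n = 4; limma adjusted p = 0.0031), the late group (0.69 ± 0.20 SD, n = 3; limma adjusted p = 0.0372) and the last group (0.75 ± 0.60 SD, n = 3; limma adjusted p = 0.0373). In the 0.2 g/l early group it was 0.52 ± 0.46 (SD, n = 4; limma adjusted p = 0.0409), with 1 array of 1.21 and the others between 0.25 and 0.32. At 180, 210 and 240 min all 3 arrays of CLB1 were above 0, as were 2 of the 3 of CLB2. CLB1 and CLB2 correlated at r = 0.168 over 20 arrays.

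CLB3, which acts with CLB4 in spindle formation, was the most variable of the cyclins, and its SD over arrays exceeded that of 99.6% of genes. In the larger pulse it was -3.89 at 3 min and -0.77 at 5 min, had no value at 7 and 10 min, and was -0.94 at 15 min, -1.22 at 20 min, -1.12 at 30 min and -0.33 at 45 min. It was -0.85 at 90 min, -0.24 at 120 min, 0.12 at 150 min, -0.78 at 180 min, -0.53 at 210 min and -1.67 at 240 min. For the smaller pulse the values were -1.55 at 4 min, -0.62 at 6 min, -0.58 at 8 min, -0.49 at 10 min, -1.97 at 15 min, -1.33 at 20 min, -7.29 at 30 min and -1.21 at 45 min, followed by -1.55, -0.30 and -1.55 at 90, 120 and 150 min. It lay below 0 on 22 of 23 arrays, and 6.31% of the genes with 20 or more values were below 0 on all arrays but at most 1.

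For the smaller pulse the middle mean of CLB3 was -2.95 ± 2.91 (SD, n = 4; limma adjusted p = 0.00236). Without the array of 30 min it was -1.50 (limma adjusted p = 0.00901), so the call did not need that array but the size did. No other group passed the test in the main fit. For the larger pulse the early mean of -2.33 ± 2.21 (SD, n = 2; limma adjusted p = 0.0586) came from 2 arrays. Without the 30 min array of the smaller pulse, the larger pulse passed early (limma adjusted p = 0.0014) and in the middle group (-0.90, limma adjusted p = 0.041). Its early mean also passed under quantile normalization (-2.21, limma adjusted p = 0.00686) and array weights (-2.52, limma adjusted p = 0.00853). These early and middle groups stayed uncalled under 29 and 31 of 35 alternatives. A fall of CLB3 particular to the smaller pulse was thus not shown. The difference between the pulses in the middle group was 2.05 (95% interval 0.07 to 4.02; limma adjusted p = 0.140).

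CLB4 was near 0 on most arrays. Following the larger pulse the early arrays read 0.16, 0.10, 0.12 and 0.22 at 3, 5, 7 and 10 min, and the middle arrays -0.22 at 15 min, 0.58 at 20 min, 0.21 at 30 min and 0.01 at 45 min. In the smaller pulse the early arrays lay between -0.01 and 0.26, and the middle arrays read -0.48 at 15 min, -0.46 at 20 min, -1.17 at 30 min and -0.05 at 45 min. The late arrays were -0.53 at 90 min, 0.07 at 120 min and 0.08 at 150 min. Every middle array of the smaller pulse was below every early array of that pulse.

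For the smaller pulse the middle mean of CLB4 was -0.54 ± 0.46 (SD, n = 4; limma adjusted p = 0.004). Both spots passed alone, at -0.45 (limma adjusted p = 0.0259) and -0.44 (limma adjusted p = 0.0389), and the array of 30 min had a value for 1 of them only. Without that array the mean was -0.33 (limma adjusted p = 0.0512). Against the early group the step was -0.61 (limma adjusted p = 0.0473), a call that held under only 8 of 35 alternatives. It was lost when array medians were set to 0 (-0.56, limma adjusted p = 0.061), without most single arrays of either pulse, and without the array of 30 min, where the step was -0.40 (limma adjusted p = 0.175). At 30 min after 0.2 g/l, CLB3, CLB4 and CLB5 had the lowest of all their values and CLB2 had none.

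CLB5 and CLB6, the S-phase cyclins, gave no call. CLB5 lay between -0.48 and 0.21 on the 14 arrays of the larger pulse, 13 of them below 0. Following the smaller pulse it was -0.33 at 2 min, -0.32 at 4 min, -0.09 at 6 min, 0.09 at 8 min, 0.16 at 10 min, 0.31 at 15 min and 0.39 at 20 min, then -2.86 at 30 min and 0.16 at 45 min. The late arrays were -0.39, 0.06 and 0.12 at 90, 120 and 150 min. Apart from the arrays of 30 and 90 min, the values of the smaller pulse went from below 0 at 2 and 4 min to above 0 from 8 min on. For the smaller pulse the middle mean was -0.50 ± 1.58 (SD, n = 4; limma adjusted p = 0.198), and 0.29 without the array of 30 min (limma adjusted p = 0.0656). Without the 3 arrays least like their groups it was 0.35, on the other side of 0 (limma adjusted p = 0.0378).

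CLB6 lay above 0 on all 4 early arrays of the larger pulse and below 0 on 4 of the 5 early arrays of the smaller one. After the larger pulse these read 0.20, 0.17, 0.24 and 0.47 at 3, 5, 7 and 10 min, and after 0.2 g/l they read -0.32, -0.33, 0.02, -0.25 and -0.84 at 2, 4, 6, 8 and 10 min. The groups did not overlap, and the difference of 0.61 (95% interval 0.12 to 1.11) had an unadjusted limma p of 0.0175 and an adjusted p of 0.270. For the larger pulse the middle arrays read 0.32, 0.42, 0.18 and 0.57 (mean 0.37 ± 0.16 SD, n = 4; limma adjusted p = 0.0927). In the smaller pulse the middle arrays ran from -1.32 at 45 min to 0.34 at 15 min, with a mean of -0.20 that was 0.17 without the array of 45 min (limma adjusted p = 0.287). Without that array CLB6 passed the test in the 2 g/l middle group (0.37, limma adjusted p = 0.00774) and in the 0.2 g/l early group (-0.34, limma adjusted p = 0.0105). CLB6 was above 0 on 12 of the 13 arrays of the larger pulse that measured it and on 4 of 12 of the smaller one.

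**Figure D3:**
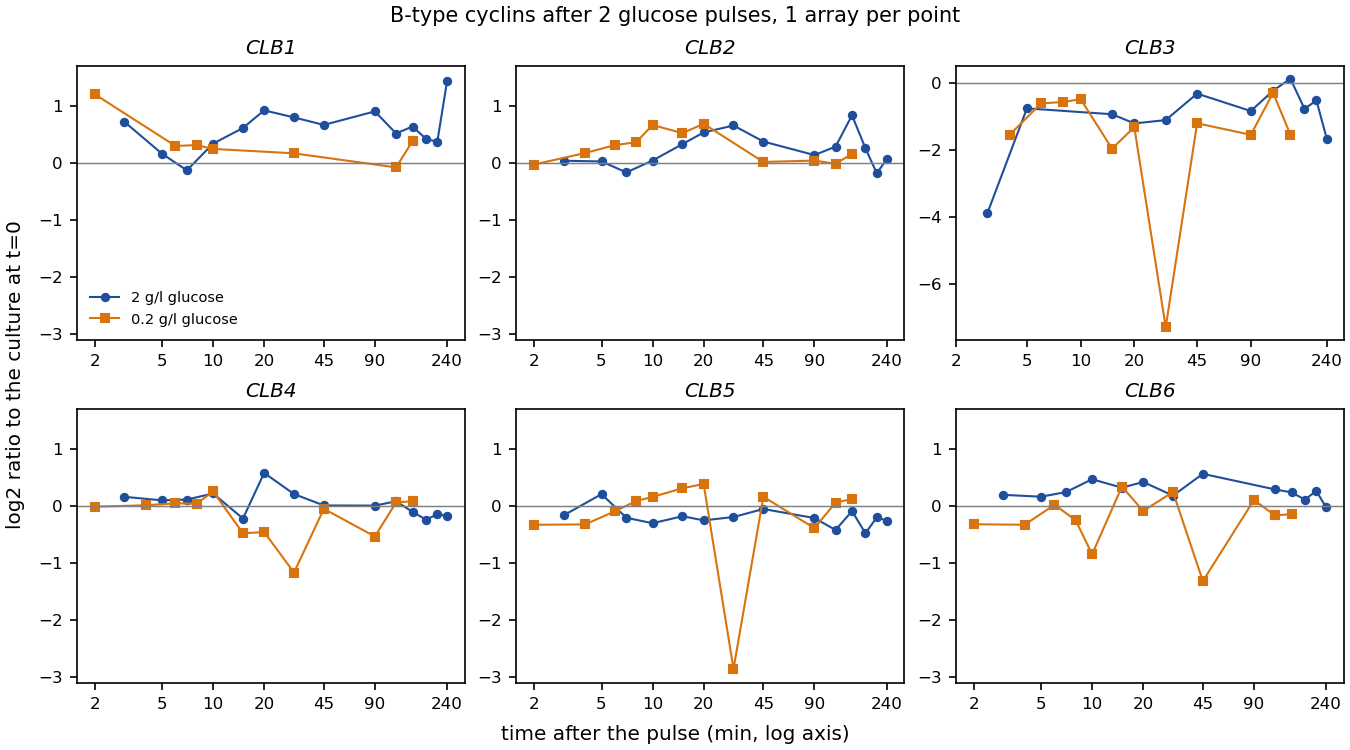
Log2 ratio to t=0 (vertical axis, wider for CLB3) against time after the pulse in min (horizontal log axis) for CLB1 to CLB6, with 1 array per point and lines joining the arrays with a value. At 30 min after 0.2 g/l CLB3 stood at -7.29, CLB5 at -2.86 and CLB4 at -1.17, while CLB2 reached 0.66 at the same time after 2 g/l.

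Counted over the 9 tested cyclins, 3 fell and 0 rose in the 2 g/l early group, where 37.6% of all genes passed the test in either direction, 16.8% higher and 20.8% lower. The median of the 9 was -0.11, against -0.04 for all genes tested. In the 2 g/l middle group 1 rose and 2 fell, against 43.8% of all genes (21.7% higher, 22.1% lower), with medians of -0.17 for the cyclins and -0.03 for all genes. The 3 of 9 called in both groups lay near the shares of all genes.

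In the 2 g/l late group 1 of 9 rose, against 14.5% of all genes (9.03% higher, 5.51% lower), and the median was -0.24 against 0.02 for all genes. In the last group limma called 0 of 9, against 8.38% of all genes, with 3 of 9 at an unadjusted p under 0.05 and a median of -0.30 against 0.05. Under quantile normalization 5 of 9 fell in that last group, namely CLB3, CLB4, CLN1, CLN2 and PCL1, against 22.4% of all genes under that scaling, and in the late group 1 rose and 2 fell, against 26.9%. With array medians set to 0 the late group had 0 calls.

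In the smaller pulse 1 rose and 1 fell in the early group, against 29.8% of all genes (18.1% higher, 11.7% lower), with medians of -0.12 and 0.02. In the middle group 1 rose and 4 fell, against 39.5% of all genes (15.1% higher, 24.4% lower), with medians of -0.41 and -0.13. In the late group 2 fell, against 7.54% of all genes (3.61% higher, 3.93% lower), with medians of -0.14 and 0.03. Quantile normalization turned the early split to 0 rises and 3 falls (CLB6, CLN1 and PCL1), against 39.4% of all genes, and the middle split to 0 and 3 (CLB3, CLB4 and PCL1), against 27% of all genes. It moved the median of all genes in the 0.2 g/l middle group from -0.13 to -0.03. Under it CLN3 there was -0.28 (limma adjusted p = 0.150) and CLB2 0.34 (limma adjusted p = 0.096), both no longer past the threshold.

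**Figure D4:**
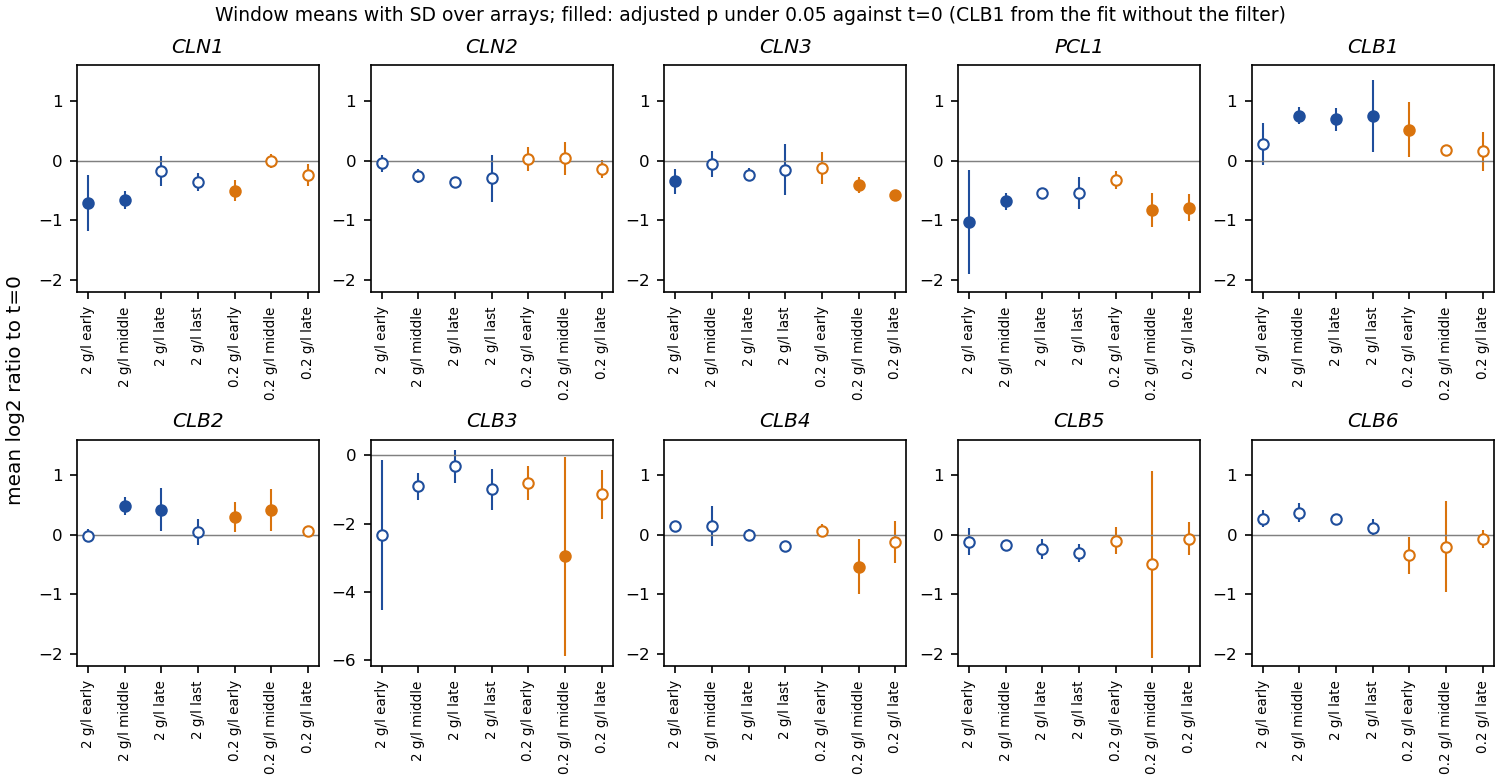
Mean log2 ratio to t=0 (vertical axis, wider for CLB3) of each of the 10 cyclins in the 7 groups of times (horizontal axis), with bars of 1 SD over arrays and filled points for a limma adjusted p under 0.05, CLB1 being taken from the fit with no filter. CLN1 and PCL1 are filled in both the early and the middle group of 2 g/l, at -0.71 and -0.66 for CLN1 and at -1.03 and -0.69 for PCL1, and CLN2, CLB5 and CLB6 have no filled point.

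Compared directly, the pulses differed in the test for 2 of 9 cyclins in the middle group, where 14.8% of all genes passed the test, 8.53% higher and 6.25% lower after the larger pulse. CLN1 was lower after 2 g/l than after 0.2 g/l, with a difference of -0.66 (95% interval -1.03 to -0.29; limma adjusted p = 0.0175), and its 4 arrays of the larger pulse all lay below the 4 of the smaller one. CLB4 was higher after 2 g/l by 0.68 (95% interval 0.29 to 1.08; limma adjusted p = 0.0197), with overlapping arrays. When the arrays of the pulses were matched by time, a fit added after the data were seen, neither passed the test (limma adjusted p = 0.0515 for CLN1 and 0.13 for CLB4). Without the 2 g/l array of 20 min neither passed the test, with a CLN1 difference of -0.60 (limma adjusted p = 0.0628) and a CLB4 difference of 0.54 (limma adjusted p = 0.0916). Without the 0.2 g/l array of 30 min the CLB4 difference was 0.47 (limma adjusted p = 0.0706). Without the 3 arrays least like their groups the CLN1 difference was -0.66 with a limma adjusted p of 0.0558.

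In the early group limma called 0 of 9 cyclins between the pulses, against 0.484% of all genes, with 2 at an unadjusted p under 0.05 (PCL1 at -0.70 and CLB6 at 0.61). In the late group it called 0 of 9, against 3.03% of all genes, with 0 at an unadjusted p under 0.05. Within a pulse, the step from early to middle gave 0 calls after 2 g/l, against 2.1% of all genes and with CLB2 alone at an unadjusted p under 0.05. After the smaller pulse it gave 1, the fall of CLB4, against 6.22% of all genes (1.14% higher, 5.08% lower). Quantile normalization gave there 1 rise, of CLN1 (0.67, limma adjusted p = 0.0171), and no fall, against 7.17% of all genes. The step from middle to late gave 0 calls in limma in both pulses, against 4.26% and 1.9% of all genes, with CLN1 after 2 g/l as the only cyclin at an unadjusted p under 0.05.

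The kinase, its inhibitors and the proteins that turn cyclins over were followed as a list of 14 genes. In the 2 g/l early group 1 rose and 6 fell, against 37.6% of all genes called, 16.8% higher and 20.8% lower. FAR1, an inhibitor of the Cln kinases in G1, read -0.37, -0.94, -1.36 and -1.40 at 3, 5, 7 and 10 min and -1.18, -0.81, -0.65 and -0.84 at 15, 20, 30 and 45 min. Its early mean was -1.02 ± 0.48 (SD, n = 4; limma adjusted p = 2.69e-05) and its middle mean -0.87 ± 0.22 (SD, n = 4; limma adjusted p = 2.8e-05). In the smaller pulse FAR1 stayed near t=0, at -0.03 ± 0.11 (SD, n = 5) and 0.01 ± 0.19 (SD, n = 4). The difference between the pulses passed the test in the early group (-0.99, limma adjusted p = 0.0055) and in the middle group (-0.88, limma adjusted p = 0.00459). SKP1 and CDC4, parts of an SCF ubiquitin ligase, also fell in the 2 g/l early group, to -1.17 (limma adjusted p = 0.0138) and -0.73 (limma adjusted p = 0.028). In the 2 g/l middle group 1 rose and 2 fell, against 43.8% of all genes called. CDC4 alone fell in the 0.2 g/l early group (-0.97, limma adjusted p = 0.00325), against 29.8%, and in the 0.2 g/l middle group 1 rose and 4 fell, against 39.5%.

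Of the transcription regulators of the G1 to S step, 14 of 15 were tested. In the 2 g/l early group 0 rose and 5 fell, a share near the 37.6% of all genes called, with a median of -0.34 against -0.04 for all genes. XBP1, a stress-induced repressor that can bind the CLN1 promoter, averaged -1.21 ± 0.74 (SD, n = 4; limma adjusted p = 0.0018) early and -1.90 ± 0.35 (SD, n = 4; limma adjusted p = 1.54e-05) in the middle group. AZF1, a zinc-finger protein tied to CLN3 transcription on glucose, averaged -1.14 ± 0.75 (SD, n = 4; limma adjusted p = 0.000391) early, with its lowest value of -2.07 at 10 min. SWI4, the DNA-binding subunit of SBF, averaged -0.89 ± 0.51 (SD, n = 4; limma adjusted p = 0.00804) early, and its middle arrays lay between -1.72 and 0.28. Within the 2 g/l middle group 1 rose and 3 fell, against 43.8% of all genes.

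Following the smaller pulse, 0 of these regulators rose and 4 fell early, against 29.8% of all genes called, and 1 rose and 3 fell in the middle group, against 39.5%. XBP1 averaged -0.71 ± 0.54 (SD, n = 5; limma adjusted p = 0.0328) early and -0.70 ± 0.78 (SD, n = 4; limma adjusted p = 0.0443) in the middle group, and the difference between the pulses there was -1.19 (limma adjusted p = 0.04). WHI5, the repressor of SBF that Cln3 acts against, averaged -0.97 ± 0.20 (SD, n = 2; limma adjusted p = 0.00358) in the 0.2 g/l middle group, where 2 of its arrays had a value, and -0.84 ± 0.61 (SD, n = 3; limma adjusted p = 0.0111) in the late group. At 10 min after 2 g/l, where CLN1 and PCL1 were lowest, AZF1 read -2.07, XBP1 -1.96 and FAR1 -1.40. That array had the largest SD over genes of the 2 g/l arrays (0.984).

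**Figure D5:**
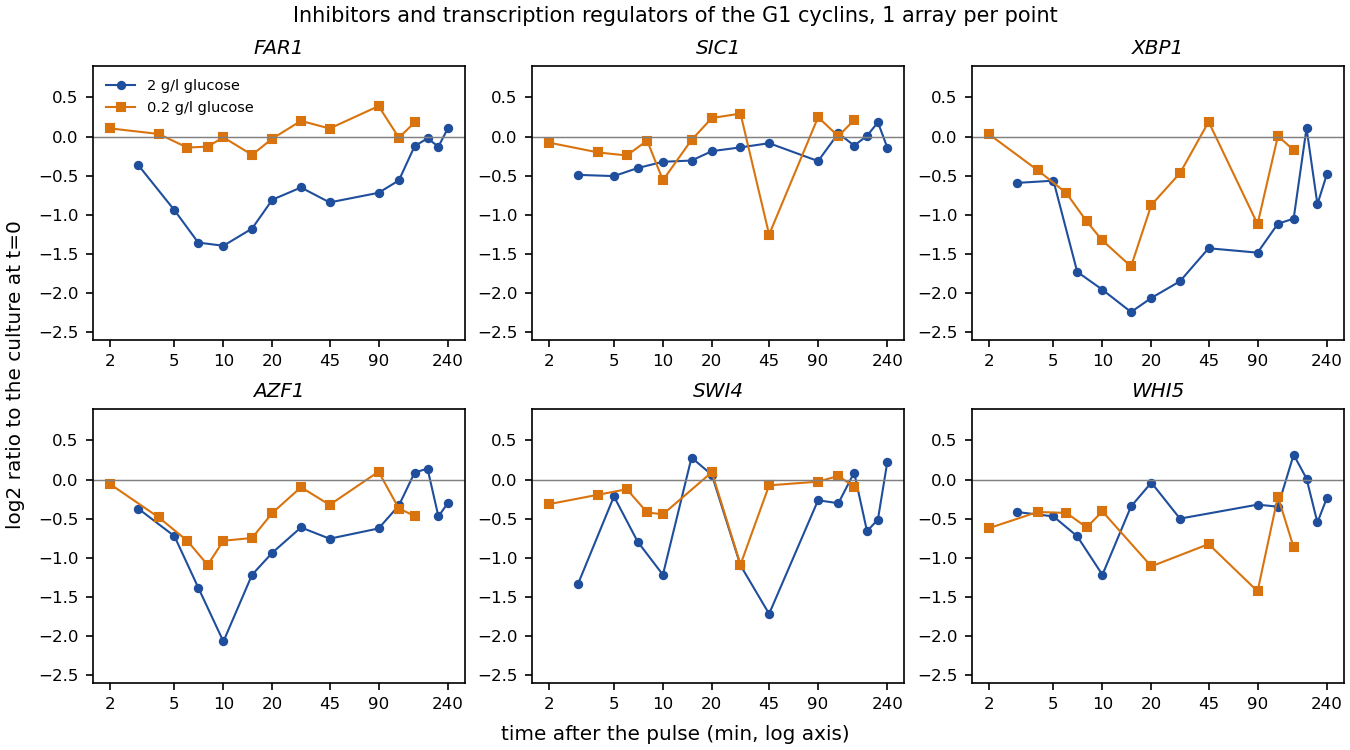
Log2 ratio to t=0 (vertical axis) against time after the pulse in min (horizontal log axis) for FAR1, SIC1, XBP1, AZF1, SWI4 and WHI5, with 1 array per point. FAR1 read -1.40 at 10 min after 2 g/l and stayed between -0.23 and 0.39 after 0.2 g/l, while XBP1 reached -2.25 and -1.66 in the same order of pulses, both at 15 min.

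The genes that SBF and MBF switch on alongside CLN1 and CLN2 gave calls in both directions. Of 20 tested, 5 rose and 2 fell in the 2 g/l early group, 2 rose and 4 fell in the middle group, 3 rose and 3 fell in the 0.2 g/l early group, and 2 rose and 2 fell in the 0.2 g/l middle group. The shares of all genes called in these groups were 37.6%, 43.8%, 29.8% and 39.5%, so the counts were near or below them. Their medians were 0.08, -0.01, -0.06 and 0.06, each within 0.2 of the median of all genes. Of a list of G2 to M regulators and genes transcribed with CLB2, 18 were tested. Within the 2 g/l middle group, where CLB2 rose, 3 rose and 1 fell, against 43.8% of all genes called, with a median of 0.06. KIN3, a mitotic kinase gene, rose there by 0.76 (limma adjusted p = 8.07e-06) and ALK1, a haspin-like kinase gene, by 0.64 (limma adjusted p = 0.0048). CHS2, the chitin synthase of the division septum, fell by 0.75 (limma adjusted p = 0.00642). In the 0.2 g/l early group 2 rose and 3 fell, and in the middle group 2 rose and 5 fell, near the 29.8% and 39.5% of all genes. Quantile normalization gave there 2 rises and 0 falls of the 18, and 1 rise and 0 falls among the 14 inhibitor and turnover genes. Under that scaling 27% of all genes were called in the 0.2 g/l middle group. For the 20 SBF and MBF genes in the 0.2 g/l early group quantile normalization gave 2 rises and 6 falls, near the 39.4% of all genes.

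Of 11 tested genes of the M to G1 interval, 2 rose and 0 fell in each of the 2 g/l middle and 0.2 g/l early groups, and 2 rose and 2 fell in the 0.2 g/l middle group, against 43.8%, 29.8% and 39.5% of all genes called. In each of the 2 g/l late and last groups 0 rose and 2 fell, against 14.5% and 8.38%. DSE1, a daughter-cell gene, was among those that fell, at -0.66 (limma adjusted p = 0.00113) and -0.88 (limma adjusted p = 0.000236), and its late difference between the pulses was -0.92 (limma adjusted p = 0.00571). It rose in the 0.2 g/l early group, to 0.39 (limma adjusted p = 0.00461). Of 8 tested genes for Pho85 and its other cyclins, 1 rose and 3 fell in the 2 g/l early group as well as in the middle group, with medians of -0.27 and -0.32, against 37.6% and 43.8% of all genes called. PCL10 and PCL8, cyclins that direct Pho85 to glycogen synthase, were at -0.94 (limma adjusted p = 0.00408) and -0.83 (limma adjusted p = 0.00145) in the early group. In the 0.2 g/l early group 1 rose and 2 fell, against 29.8%, and in the middle group 0 rose and 3 fell, against 39.5%, PCL5 by the most (-1.18, limma adjusted p = 0.000396). Of 4 cyclins of transcription kinases, BUR2 rose in the 2 g/l middle group (0.68, limma adjusted p = 8.95e-06). It was the only 1 of the 4 called there, against 43.8% of all genes. Each of the 2 g/l early and 0.2 g/l early groups had 1 rise and 1 fall in this list, against 37.6% and 29.8%. The 0.2 g/l middle group had 1 rise, against 39.5%.

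Between the cyclins, the 45 pairwise correlations over arrays had a median Pearson r of 0.117. The highest was 0.783 for CLB3 and CLB5 over 23 arrays, but it was 0.014 within the 2 g/l arrays and 0.929 within the 0.2 g/l arrays, which include the array of 30 min on which both were lowest. The lowest was -0.57 for CLN1 and CLB4 over 26 arrays, negative within both pulses. CLN1 and PCL1 correlated at 0.759 within the 2 g/l arrays and at -0.762 within the 0.2 g/l arrays. CLB1 lies next to CLB6 on chromosome VII and CLB2 next to CLB5 on chromosome XVI in yeast assembly R64, with no gene between them. These neighbours correlated at 0.0654 over 20 arrays and at 0.315 over 25 arrays.

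The genes whose values most resembled a cyclin over at least 20 arrays were found by Pearson r, with every point sharing the t=0 reference. For CLN1 they were ROM2 (r = 0.856 over 26 arrays), FDO1 (0.843) and BYE1 (0.833), with r between 0.827 and 0.867 within each pulse. For CLB2 they were THS1 (0.849 over 25 arrays), SAH1 (0.724 over 24) and ADE12 (0.721 over 25). The closest gene to CLN3 was CLB1 (0.701 over 21 arrays), another of the cyclins. The closest to CLN2 was RSN1 (0.776 over 26 arrays) and the closest to PCL1 was TAF1 (0.883 over 25 arrays). For CLB5 the closest was RAD17 at 0.948 over 26 arrays, but 0.252 within the 2 g/l arrays. The closest gene was SAE3 for CLB3 (0.884 over 23 arrays), YMC2 for CLB4 (0.88 over 25 arrays) and EXO5 for CLB6 (0.864 over 25 arrays). For CLB1 the closest was YEL076C-A (0.706 over 20 arrays).

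In variability over arrays the cyclins spanned nearly the whole range of the array. The SD of CLN2 exceeded that of 11.9% of genes, that of CLN3 17% and that of CLB2 20.8%. CLN1 and CLB4 followed at 32.2% and 32.4%, CLB1 at 45.8%, CLB6 at 50.4% and PCL1 at 50.7%. CLB5, at 74.6%, and CLB3 stood above the rest, both with their lowest value on the same array.

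The genes whose values followed a cyclin most closely are given by Pearson r over the arrays with both values, as a description of points that share a t=0 reference. For CLN1 they were ROM2, FDO1 and BYE1, with r of 0.856, 0.843 and 0.833 over 26 arrays. ROM2, an exchange factor for the cell wall GTPase Rho1, had an r of 0.827 within the 2 g/l arrays and 0.843 within the 0.2 g/l arrays. For PCL1 the closest was TAF1, a subunit of the general factor TFIID, with r = 0.883 over 25 arrays. THS1, a threonyl-tRNA synthetase, was closest to CLB2 with r = 0.849 over 25 arrays. CLN3 and CLB1 were each among the 3 closest genes of the other, with r = 0.701 over 21 arrays. For CLB5 the closest was RAD17, a DNA damage checkpoint gene, with r = 0.948 over 26 arrays, but 0.252 within the 2 g/l arrays and 0.981 within the 0.2 g/l arrays, which hold the array of 30 min.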

How the data were processed

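The deposited table holds log2 ratios per spot as processed by the authors, and the table itself does not name its scale. The scale was inferred from the values, and the direction was taken as Cy5 (after the pulse) over Cy3 (t=0) per the labels. How the ratios were normalized, and with which image software the spots were read, is not given in the sources used here. As for its design, the series' text names only a regression correlation. Whether 1 t=0 extract served all arrays of a pulse is not given, and no array had the dyes exchanged. Because every array used t=0 RNA as its reference, the spread of the t=0 sample itself is not in the tests.

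Of 10752 spots, 6834 carried a gene name, giving 5606 genes, all matched by name to the yeast assembly R64, and 3918 were unnamed and not used. An array had 7627 to 9765 measured spots, and column medians lay between -0.118 and 0.028. Nothing was rescaled. Spots of a gene were averaged, and 5372 genes with at least 2 values in each of the 7 groups of times were fitted with limma 3.58.1 (R 4.3.3): 7 group means, empirical Bayes moderation, two-sided tests, Benjamini-Hochberg adjustment over all genes tested within each of 14 comparisons, and a threshold of 0.05. The number of arrays limits the precision. A missing value was left out of its group, so the n given is the number of arrays with a value. The fit was tested on simulated data. Figures and correlations used Python 3.11.15, pandas 2.3.3, numpy 2.4.6 and matplotlib 3.10.9.

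The cyclins and the other gene lists were chosen with earlier results of these data known. All cyclins are named. Of each other list, up to 3 called genes with the largest estimates in a comparison could be named, and of the genes most like a cyclin the top 3 by r. The alternatives tried were array medians set to 0, quantile normalization, only genes measured on all arrays, only the groups compared, array weights, the median of spots, the 15 min arrays counted as early, the last group as reference, and each array left out in turn. A search of promoters and a comparison of protein sequences were planned and not run, since no sequences were used here.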

Additional observations from a re-analysis of the deposited data

Results flagged for a closer look

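In 36 sets of 4 or 5 arrays, 7 single values of the cyclins stood far from the rest of their group. The rule marks about 1 in 20 sets of independent values by chance. These sets are successive times and share arrays, so that rate cannot show an excess here. At 30 min after 0.2 g/l, CLB3 was -7.29, with the other middle arrays between -1.97 and -1.21, and CLB5 was -2.86, with the others between 0.16 and 0.39. In the 0.2 g/l early group, CLB1 was 1.21 at 2 min against 0.25 to 0.32 on the other arrays, and CLB3 was -1.55 at 4 min against -0.62 to -0.49. In the same group CLB4 was 0.26 at 10 min against -0.01 to 0.05, and CLN3 was -0.57 at 8 min against -0.09 to 0.11. In the 2 g/l early group, CLB2 was -0.16 at 7 min against 0.03 to 0.04 on the other arrays.

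The difference between the pulses itself passed limma's test for 2 cyclins, both in the middle group, CLN1 at -0.66 (limma adjusted p = 0.0175) and CLB4 at 0.68 (limma adjusted p = 0.0197). With arrays matched by time neither passed (limma adjusted p = 0.0515 and 0.13). No cause of these values was tested.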

How the results depend on the processing

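Counts of cyclins called are given here with the value as reported in brackets, and the cause of each change was not tested. Except for quantile normalization, the share of all genes called under a setting is not set beside the counts of this section. A changed count can therefore not be read as a result about the cyclins. With array medians set to 0, the 2 g/l late group had 0 calls (1), the 0.2 g/l early group 1 (2) and the 0.2 g/l step from early to middle 0 (1). Under quantile normalization the 2 g/l late group had 3 (1), the 2 g/l last group 5 (0) and the 0.2 g/l middle group 3 (5). The shares of all genes called in these groups were then 26.9% (14.5%), 22.4% (8.38%) and 27% (39.5%). With only genes measured on all arrays, which leaves fewer cyclins to test, there were 1 in the 2 g/l middle (3), 0 in the 2 g/l late (1), 1 in the 0.2 g/l early (2), 2 in the 0.2 g/l middle (5) and 1 in the 0.2 g/l late group (2). Fitting only the groups compared gave 0 in the 2 g/l early (3), 7 in the 2 g/l middle (3), 2 in the 2 g/l late (1), 0 in the 0.2 g/l middle (5) and 0 in the 0.2 g/l late group (2), and 0 for the middle difference between pulses (2) and for the 0.2 g/l step from early to middle (1). Array weights, whose estimation stopped before convergence, gave 6 in the 2 g/l middle (3), 5 in the 2 g/l late (1) and 4 in the 0.2 g/l late group (2). They gave 1 for the early and 1 for the late difference between pulses (0 and 0), 1 for the 2 g/l step from early to middle (0), and 3 and 3 for the 0.2 g/l steps from early to middle (1) and from middle to late (0). Counting 15 min as early gave 0 in the 2 g/l late group (1) and 0 for the 0.2 g/l step from early to middle (1). With the last group of a pulse as reference, all 5 earlier groups had 0 calls, and CLN3 in the 0.2 g/l middle group turned to 0.17 (limma adjusted p = 0.608).

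Chosen after seeing the data, the fit with no filter gave 2 in the 2 g/l late (1), 1 in the 2 g/l last group (0) and 0 for the 0.2 g/l step from early to middle (1). Leaving out the 0.2 g/l arrays of 30, 45 and 90 min, also chosen after seeing the data, gave 5 in the 2 g/l early (3), 6 in the 2 g/l middle (3), 2 in the 2 g/l late (1) and 0 in the 0.2 g/l late group (2), and 1 for the 0.2 g/l step from middle to late (0). CLB5 turned to 0.35 in the 0.2 g/l middle group (limma adjusted p = 0.0378) and to -0.52 for the middle difference between pulses (limma adjusted p = 0.0421).

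Leaving out each array in turn gave 2 to 4 calls in the 2 g/l early group, 3 to 5 in the middle, 0 to 2 in the late and 0 to 0 in the last. After 0.2 g/l it gave 1 to 3 early, 3 to 5 in the middle and 0 to 2 late. Between the pulses it gave 0 to 0 early, 0 to 3 in the middle and 0 to 0 late. The steps within a pulse gave 0 to 0 and 0 to 0 after 2 g/l, and 0 to 2 and 0 to 0 after 0.2 g/l. Over 126 estimates of single cyclins, 171 of 4417 alternative values changed the call. In 114 the sign changed, of which 111 passed the test neither as reported nor under the alternative. Of 98 counts of calls in the other gene lists, 68 stayed within 1.5 times the reported count under quantile normalization and 92 with array medians set to 0. The labels give no replicate numbers. Matching the pulses by time, chosen after seeing the data, was possible in the middle and late groups, and gave 0 calls for the middle difference between pulses (2) and 0 for the late one (0). With 1 array per time and no second culture of a pulse named in the labels, the tests cannot separate the pulse from the culture or the t=0 sample.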
